A study of Homo sapiens with 6 samples.

Results

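Most of the genes described here encode the machinery of mitosis. That machinery runs from the kinases that start mitosis to the kinetochore, the checkpoint, the condensins and the motors of the spindle and midzone. The genes were taken by symbol, from probe sets with a single gene symbol. That symbol had to be on a fixed list of mitotic families and genes, such as CENP, ANAPC, NCAP and KIF members. Another 3 genes matched by the start of their symbol only. The rule found 78 genes of 11584 in the table, each read by 1 probe set, a group of short oligonucleotides on the array for 1 transcript. BIRC5 and SPC24 had 2 probe sets, and the one with the higher mean over all arrays was used. Of the protein-coding genes in the RefSeq table whose symbols match the rule, 8 had no probe set with a single symbol here and were not analysed.

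The cells were HEK293 T-REx Flp-In, derived from human embryonic kidney, with a stably inserted FLAG/HA-tagged LIN28B transgene that doxycycline switches on (250 ng/ml in the protocol). Transfections used Lipofectamine RNAiMAX. There were 3 groups of 2 Affymetrix U133 Plus 2.0 arrays: mock transfected with the transgene not induced, mock transfected with the transgene induced, and siRNA transfected with the transgene not induced. LIN28B binds RNA, keeps let-7 microRNAs from being processed and contacts many mRNAs, and the study asked how transcript levels change when it is depleted. All groups share the same transgenic line. The siRNA cells differ from the mock cells by siRNA transfection as well as by the loss of LIN28B, since no array of a non-targeting siRNA was analysed here. The labels do not say whether replicates are separate cultures, so p-values rest only on how far these arrays lie apart, and that spread may be technical. Values are the authors' deposited log2 expression values (GCRMA). A difference of 1 is thus a 2-fold change. Genes were tested with limma in 1 model of the 3 groups, with Benjamini-Hochberg adjustment over all 11584 genes, and an adjusted p under 0.05 made a call.

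A dividing cell enters mitosis when CDK1, bound by cyclins A and B, is switched on. Condensins then compact the chromosomes, and kinetochores built on centromeric chromatin of CENP proteins attach them to spindle microtubules. The spindle checkpoint holds back the anaphase-promoting complex until every kinetochore is attached. That complex is a ubiquitin ligase which then marks securin and cyclin B for destruction. Most transcripts of this machinery rise together in G2 and fall in G1, and proliferating lines such as HEK293 hold them at high levels.

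The targeted transcript LIN28B read 10.02 and 9.85 on the mock arrays without induction, 10.15 and 10.11 on the induced arrays and 7.51 and 7.53 on the knockdown arrays. Its log2 difference between knockdown and mock without induction was -2.42 (SE 0.078, limma adjusted p = 5.02e-07). Across probe sets r was 0.9899 to 0.9937 within groups, and knockdown arrays correlated with mock arrays at 0.97 to 0.9745. The proliferation markers MKI67, CDK1 and CCNA2 were in the table and read between 7.65 and 11.41 on all arrays. Few markers of other cell types were in the table. Of 5 epithelial markers 4 were present and 2 rose and 1 fell, of 7 fibroblast markers 2 were present and 1 fell, and of 9 neuronal and adrenal markers 3 were present, with 1 up and 1 down. Of 5 blood markers 2 were present, neither called, with means of 5.06 and 5.19. The part of such changes in the values below was not tested.

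The first comparison set cells depleted of LIN28B against mock cells, both without induction of the transgene. Mitosis and kinetochore genes moved in both directions. The kinetochore gene CENPQ more than doubled, CDK1 and its B-type cyclins rose slightly, and the proliferation marker MKI67 dropped to 49.7% of its mock level. The B-type cyclins were not called with no intensity trend in the variance prior. Of the 78 genes, 17 rose, 12 fell and 49 did not pass. The share called was 37.2%, against 28.0% of all genes tested. For rises the share was 21.8% against 13.5% of all genes, and for falls 15.4% against 14.5%. The arrays of the 2 groups did not overlap for 28 higher and 23 lower genes of the 78, where 31.7% and 30.9% of all genes, 62.6% in all, were apart in that way. No test was made of these shares, and the share of falls lay near that of all genes. The 78 genes also read higher, with a median level of 8.87 against 7.16 over all genes. With no intensity trend in the variance prior, 7 rose and 8 fell, against 1233 and 1356 of all 11584 genes. The share called was then no higher than that of all genes. In the main fit the median log2 difference was 0.015, against 0.006 over all genes. The median size regardless of sign was 0.187, against 0.207. Changes of at least 2-fold were called for 2 genes of the 78, CENPQ and MKI67, where 255 of all genes, or 2.20%, were so called. In bulk RNA a change in the share of cells in G2 or mitosis and a change in RNA per cell cannot be told apart.

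These counts rest on both knockdown arrays. Of the 29 called genes 10 kept their call without replicate 1 of the knockdown and 18 without replicate 2, where the remaining array is taken to have the spread of the other groups. With no intensity trend in the variance prior 15 kept it, and 26 did with only the 4 arrays compared in the fit. Without the trend AURKA, CCNB1, CCNB2, CDC20, PTTG1, ANAPC5, ANAPC10, ANAPC13, CENPN, SPC24, TTK, KIF2C, KIF4A and KIF14 lost it. Over all genes, too, fewer were called with either knockdown array left out. Some calls held under all alternatives that tested them. Among the rises these were CDK1, CENPL, CENPQ, CENPW and ZWINT. Among the falls they were ANAPC7, BUB3, CENPV, CENPX and MKI67. Of these genes, CENPL, ZWINT, ANAPC7, BUB3, CENPV and MKI67 were not tested in the alternative without _x_at and _s_at probe sets. Of the 12 genes that fell, 8 were read by probe sets ending in _x_at or _s_at, which can pick up related transcripts, against 5 of the 17 that rose. Those 8 are MKI67, ANAPC7, CENPV, BUB3, AURKA, ANAPC4, ANAPC5 and PTTG1. Of the 49 genes not called, 14 were called under at least 1 alternative, among them CENPA and CENPF with the mock groups pooled (0.27 and -0.17, limma adjusted p = 0.032 and 0.0468), SPC25 and ZWILCH without replicate 2 of the mock arrays not induced (0.31 and -0.24, 0.0312 and 0.0302), and ANAPC15 and ANAPC11 with arrays centred (0.34 and 0.15, 0.0437 and 0.0488).

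**Figure D1:**
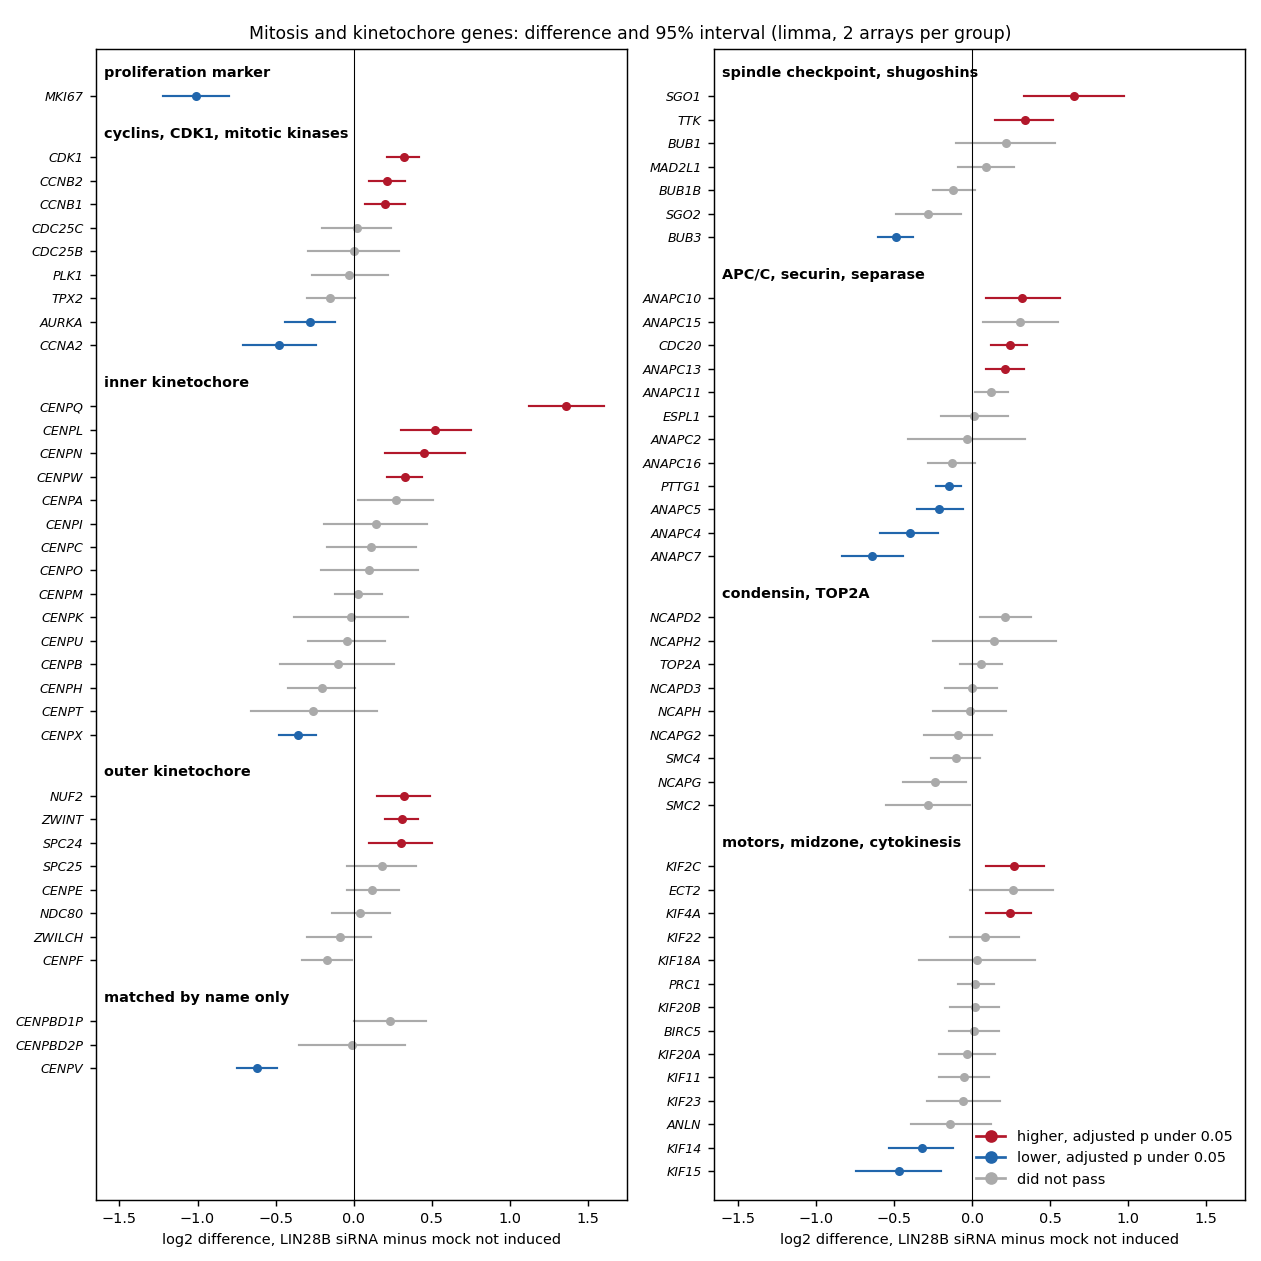
The log2 difference between LIN28B siRNA and mock without induction (points) and its 95% interval from limma (lines) for the 78 genes, grouped by role, with 2 arrays in each group. Red genes were called higher (17), blue ones lower (12) and grey ones did not pass (49); CENPQ at 1.36 and MKI67 at -1.01 lie farthest from 0, and all 9 genes of the condensin group are grey.

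Beyond the rule, the sequences before the starts of these genes were searched for short motifs. Promoters of mitotic genes often hold a cell cycle homology region, a short element bound by the DREAM and MuvB complexes that represses the genes in G1 and activates them in G2, and CCAAT boxes bound by NF-Y. RefSeq promoter windows of assembly GRCh38.p14, 250 bases before to 50 after the first listed start, were matched for 67 of the 78 genes. The letters searched were TTTGAA and TTCGAA for the homology region and CCAAT for the box, on both strands. The homology motif was in 38 of 67 windows (56.7%), against 11.0% of the 9476 windows of all genes tested that have one. CCAAT was in 41 (61.2%) against 37.0%, and both motifs were in 27 (40.3%) against 4.70%. TTTCCCGC or TTTGGCGC, forms of the E2F site, were in 2 (2.99%) against 3.71%. The homology motif was in 9 of 15 windows of genes that rose, in 4 of 10 of genes that fell and in 25 of 42 of those that did not pass. CCAAT was in 11, 6 and 24 of them. The windows of rising and falling genes thus both held these letters; the differences between them were not tested, and a match is a description of letters, not a site.

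The 150 bases before the start are printed 5′ to 3′ for the 5 called genes with both motifs in that stretch, of which MKI67 fell and the other 4 rose, and for CENPQ, the gene with the largest rise. Capitals mark the letters searched for the homology region and the box, or their complements, and in MKI67 1 homology motif overlaps a CCAAT box by its last base.
MKI67, chr10:128126424-128126573, minus strand: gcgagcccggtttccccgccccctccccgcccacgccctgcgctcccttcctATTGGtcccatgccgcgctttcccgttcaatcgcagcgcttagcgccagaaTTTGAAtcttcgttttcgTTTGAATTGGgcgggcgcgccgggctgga
ZWINT, chr10:56361260-56361409, minus strand: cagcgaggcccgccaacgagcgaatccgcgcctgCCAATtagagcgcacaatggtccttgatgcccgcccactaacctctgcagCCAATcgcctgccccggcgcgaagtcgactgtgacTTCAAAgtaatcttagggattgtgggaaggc
CDC20, chr1:43358831-43358980, plus strand: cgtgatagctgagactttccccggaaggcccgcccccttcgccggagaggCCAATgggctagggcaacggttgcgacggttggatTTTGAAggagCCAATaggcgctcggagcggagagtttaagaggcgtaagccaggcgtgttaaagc
KIF4A, chrX:70289954-70290103, plus strand: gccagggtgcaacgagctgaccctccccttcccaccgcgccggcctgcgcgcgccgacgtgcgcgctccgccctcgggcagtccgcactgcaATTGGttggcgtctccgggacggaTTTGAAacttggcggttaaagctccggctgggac
CCNB2, chr15:59104996-59105145, plus strand: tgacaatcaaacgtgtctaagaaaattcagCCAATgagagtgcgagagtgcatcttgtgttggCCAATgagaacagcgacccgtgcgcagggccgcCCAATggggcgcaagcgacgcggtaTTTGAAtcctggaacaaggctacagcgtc
CENPQ, chr6:49463220-49463369, plus strand: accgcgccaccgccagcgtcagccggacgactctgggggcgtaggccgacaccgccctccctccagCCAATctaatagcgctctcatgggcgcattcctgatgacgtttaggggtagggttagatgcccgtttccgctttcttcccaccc
The homology motif nearest the start began 29 bases before it in MKI67, 29 in CCNB2, 31 in ZWINT, 34 in KIF4A and 65 in CDC20. MKI67 and CCNB2, which went opposite ways, had the same letters at the same distance, but only in MKI67 did they overlap a CCAAT box. Whether the letters or their distance bear on the changes was not tested. CENPQ had a CCAAT box 84 bases before the start, and neither form of the homology motif was in its 300-base window.

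**Figure D2:**
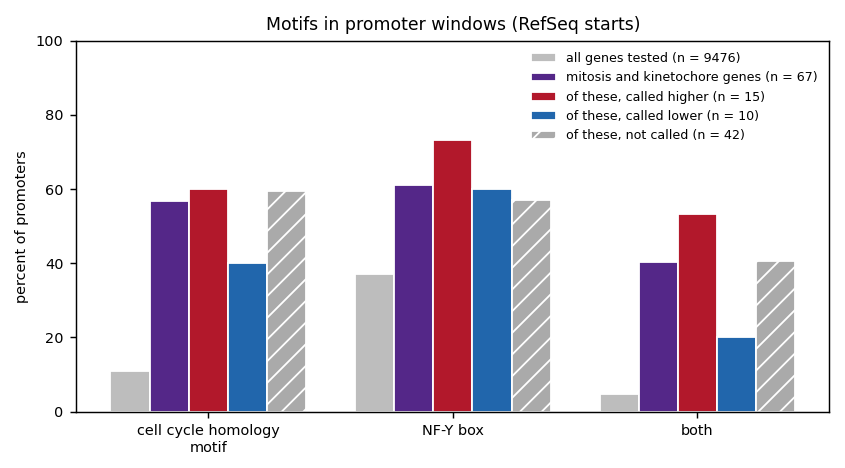
The percentage of promoter windows (y axis) that hold the cell cycle homology motif, the NF-Y box or both, for all genes tested (light grey), the 67 mitosis and kinetochore genes with a window (purple) and these genes by their call in the knockdown comparison. The homology motif was in 56.7% of the 67 windows against 11.0% of all, and all 3 call classes lie above the light grey bar.

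MKI67 encodes Ki-67, a protein that coats mitotic chromosomes and marks proliferating cells. It read 8.61 and 8.80 on the mock arrays without induction, 8.60 and 8.68 on the induced arrays and 7.65 and 7.74 on the knockdown arrays. Both knockdown arrays lay below all 4 mock arrays. The log2 difference was -1.01 (SE 0.093, 95% interval -1.22 to -0.80, limma adjusted p = 0.000118).

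Among the genes of the mitotic switch, CDK1 and both B-type cyclins rose while cyclin A2 and Aurora A fell. Of 9 genes, 3 rose, 2 fell and 4 did not pass (55.6% called, against 28.0% of all genes). Neither this share nor those of the groups below were tested. With no intensity trend in the variance prior CCNB1, CCNB2 and AURKA lost their calls (limma adjusted p = 0.145, 0.101 and 0.0954). CDK1 and CCNA2 kept theirs, and 2589 of all 11584 genes were called in that setting. CDK1, the kinase that drives entry into mitosis, read 11.05 and 11.11, then 11.02 and 11.05 with induction, and 11.39 and 11.41 in the knockdown. All mock values lay below both knockdown values, and the difference was 0.32 (SE 0.047, limma adjusted p = 0.00112). CCNB1, whose product cyclin B1 activates CDK1, read 10.49 and 10.42, 10.45 and 10.34 with induction, and 10.67 and 10.64 in the knockdown (0.20, SE 0.060, limma adjusted p = 0.0325). CCNB2, the other B-type cyclin, read 10.74 on both mock arrays, 10.74 and 10.78 with induction, and 10.98 and 10.93 in the knockdown (0.21, SE 0.050, limma adjusted p = 0.0108). These 3 genes rose by 1.15-fold to 1.25-fold.

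CCNA2 encodes cyclin A2, which partners CDK2 in S phase and CDK1 in G2. It read 9.24 and 8.93, 9.06 and 8.92 with induction, and 8.60 and 8.62 in the knockdown, a difference of -0.48 (SE 0.105, limma adjusted p = 0.00812). The groups did not overlap, but the mock arrays without induction lay farther apart than the knockdown arrays. AURKA, the kinase of spindle poles, read 10.96 and 10.75, 10.78 and 10.86, and 10.61 and 10.54 (-0.28, SE 0.072, limma adjusted p = 0.0165). TPX2, which activates Aurora A on the spindle, had a difference of -0.15 (95% interval -0.30 to 0.01) and the phosphatase gene CDC25B one of 0.00 (-0.29 to 0.29), neither called. Without replicate 1 of the knockdown CCNA2, CCNB1, CCNB2 and AURKA lost their calls (limma adjusted p = 0.0612, 0.163, 0.09 and 0.0557), and without replicate 2 CCNB1 and AURKA did (0.106 and 0.112). Of the mock arrays not induced, leaving out replicate 1 ended the call of AURKA (-0.18) and leaving out replicate 2 that of CCNB1 (0.16). CCNB1 was not called after quantile normalization (0.16, limma adjusted p = 0.0568).

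**Figure D3:**
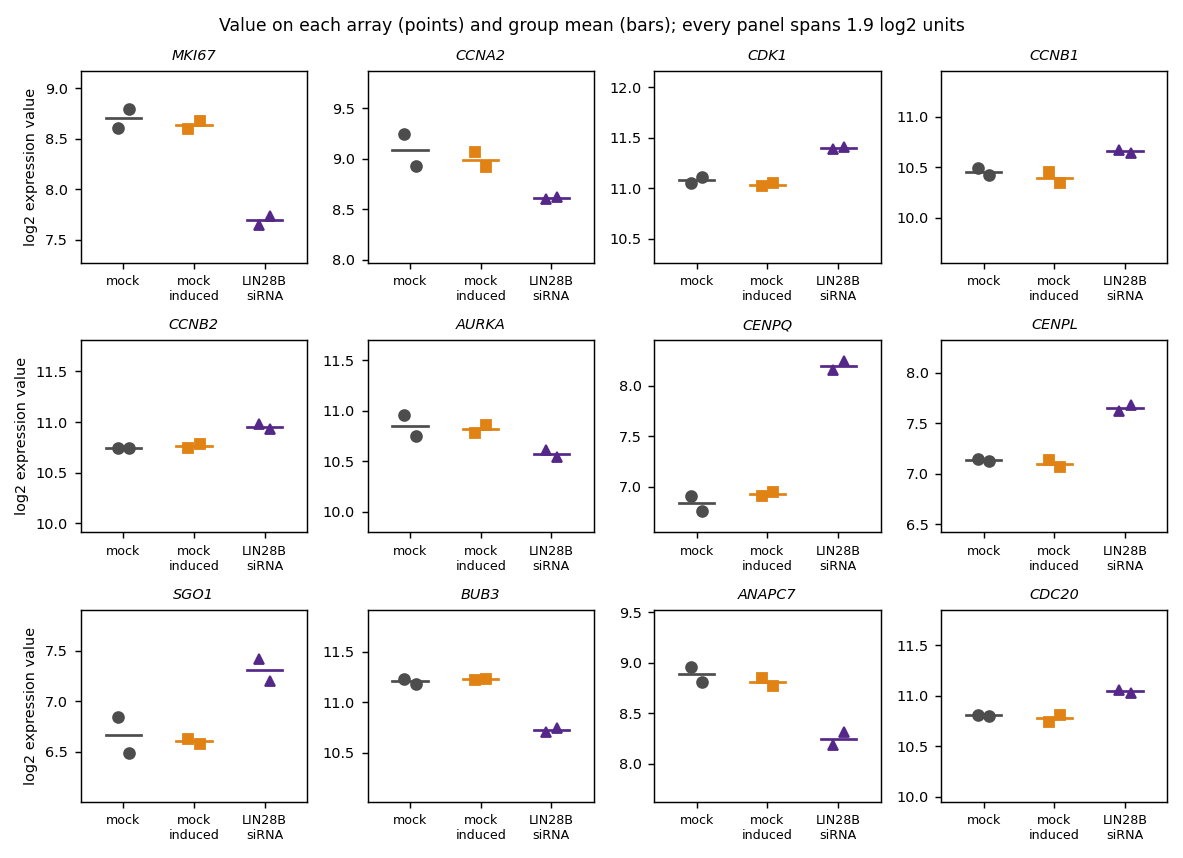
The deposited log2 expression value on each array (points) and the mean of each group (bars) for 12 of the genes, with the same span of the y axis in every panel. Knockdown arrays (triangles) lie below all mock arrays for MKI67, CCNA2, AURKA, BUB3 and ANAPC7 and above them for the other 7 genes.

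The inner kinetochore, a set of CENP proteins on the centromeric nucleosome, held the largest rise. Of 15 genes, 4 rose, 1 fell and 10 did not pass (33.3% called, against 28.0% of all genes). CENPQ, a subunit of the CENP-O complex that links the inner kinetochore to microtubules, read 6.91 and 6.76, 6.91 and 6.95 with induction, and 8.15 and 8.24 in the knockdown. The knockdown arrays stood more than 1 log2 unit above every mock array, and the difference was 1.36, or 2.57-fold (SE 0.106, 95% interval 1.12 to 1.60, limma adjusted p = 5.43e-05). Its partners CENPO and CENPU did not pass, with 0.10 (-0.21 to 0.41) and -0.04 (-0.29 to 0.20).

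CENPL and CENPN encode a pair of proteins, of which CENP-N reads the CENP-A nucleosome. CENPL read 7.14 and 7.12, 7.13 and 7.06, and 7.62 and 7.68 in the knockdown (0.52, SE 0.101, limma adjusted p = 0.00431). CENPN read 8.59 and 8.60, 8.52 and 8.16, and 9.09 and 9.01 (0.45, SE 0.113, limma adjusted p = 0.0144). Both stood above all mock arrays in the knockdown. CENPW and CENPX encode histone-fold proteins of the CENP-T-W-S-X complex and went opposite ways. CENPW read 10.81 and 10.80, 10.83 and 10.81, and 11.09 and 11.17 (0.33, SE 0.051, limma adjusted p = 0.00147). CENPX, which also acts in DNA repair, read 11.05 and 11.04, 11.01 and 10.90, and 10.68 and 10.69 (-0.36, SE 0.053, limma adjusted p = 0.0011). CENPT, the remaining member of that complex here, had -0.26 (-0.66 to 0.15), with mock arrays at 5.84 and 6.36 that overlapped the knockdown arrays at 5.94 and 5.74. CENPK, of the CENP-H-I-K-M complex, read 8.84 and 8.21 on the mock arrays, wider apart than any difference between its groups, and 8.46 and 8.56 in the knockdown (-0.02, -0.38 to 0.35). CENPA, the centromeric histone itself, had 0.27 (0.03 to 0.51, limma adjusted p = 0.0925), and CENPM and CENPH had 0.03 and -0.20, none of them called. CENPN lost its call without replicate 1 or 2 of the knockdown (limma adjusted p = 0.108 and 0.059).

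In the outer kinetochore, which binds microtubules, 3 of 8 genes rose, 0 fell and 5 did not pass. That is 37.5% called, against 28.0% of all genes, and 14.5% of all genes fell. ZWINT, which recruits the checkpoint to the kinetochore, read 11.50 and 11.51, 11.50 and 11.60, and 11.82 and 11.80 in the knockdown (0.31, SE 0.046, limma adjusted p = 0.00126). NUF2 and SPC24 are subunits of the NDC80 complex, the main microtubule anchor. NUF2 read 9.34 and 9.18, 9.25 and 9.20, and 9.58 on both knockdown arrays (0.32, SE 0.075, limma adjusted p = 0.0111). SPC24 read 8.36 and 8.24, 8.28 and 8.42, and 8.58 and 8.63 (0.30, SE 0.089, limma adjusted p = 0.0298). In all 3 genes both knockdown arrays stood above the 4 mock arrays. The other subunits of the same complex did not pass: NDC80 had 0.04 (-0.14 to 0.23) and SPC25 had 0.18 (-0.04 to 0.40). The second probe set of SPC24 read lower, between 5.35 and 5.64 on all arrays, with a difference of -0.09, and the mean of both sets was not called (0.11, limma adjusted p = 0.518). NUF2 and SPC24 lost their calls without replicate 1 of the knockdown (limma adjusted p = 0.0741 and 0.109) and without replicate 2 (0.0667 and 0.149). SPC24 also did without replicate 2 of the mock arrays not induced (0.0898). CENPE, a kinetochore motor, and ZWILCH, of the complex that brings dynein there, had 0.12 and -0.09 and were not called.

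Among 7 genes of the spindle checkpoint and of centromeric cohesion, 2 rose, 1 fell and 4 did not pass. The share called was 42.9%, against 28.0% of all genes. SGO1, whose product shugoshin protects centromeric cohesin, read 6.84 and 6.49, 6.63 and 6.58, and 7.42 and 7.20 (0.65, SE 0.144, limma adjusted p = 0.00852). The mock arrays without induction and the knockdown arrays lay far apart within their pairs and the induced arrays close together, and the groups did not overlap. TTK, the MPS1 kinase that starts checkpoint signalling, read 9.68 and 9.44, 9.46 and 9.52, and 9.90 on both knockdown arrays (0.34, SE 0.082, limma adjusted p = 0.0137). BUB3, an adaptor of the checkpoint complex, read 11.23 and 11.18, 11.22 and 11.23, and 10.70 and 10.74 (-0.49, SE 0.048, limma adjusted p = 0.000141). It was thus lower in the knockdown by many times the distance between arrays of a group. The other checkpoint genes did not pass: BUB1 had 0.22 (-0.10 to 0.53), MAD2L1 0.09 (-0.09 to 0.27) and BUB1B -0.12 (-0.25 to 0.02). SGO2, the paralog of SGO1, had -0.28 (-0.49 to -0.07) and lay just outside the threshold (limma adjusted p = 0.0514). It was called with the mock groups pooled (0.0114), with the replicate number as a block (0.0318), with a floor of 6 (0.0451) and without replicate 2 of the mock arrays not induced (-0.34, 0.0399). BUB1 had 0.42 and was called without replicate 1 of those arrays (limma adjusted p = 0.0337), and had 0.01 without replicate 2. SGO1 lost its call without replicate 1 of the knockdown (0.54, limma adjusted p = 0.0865), and TTK without replicate 1 or 2 (0.0826 and 0.0767). Without replicate 2 of the mock arrays not induced TTK had 0.22.

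The anaphase-promoting complex was split by subunit. Of 12 genes of the complex and its main partners, 3 rose, 4 fell and 5 did not pass. This made 58.3% called, against 28.0% of all genes. The share depends on the variance prior. With no intensity trend ANAPC10, ANAPC13, ANAPC5, CDC20 and PTTG1 lost their calls (limma adjusted p between 0.0531 and 0.218). Only ANAPC4 and ANAPC7 kept theirs, and 2589 of all 11584 genes were called in that setting. ANAPC7, a scaffold subunit of the arm that binds coactivators, read 8.96 and 8.81, 8.85 and 8.77, and 8.19 and 8.31 in the knockdown (-0.64, SE 0.088, limma adjusted p = 0.000818). ANAPC4, of the platform of the complex, read 8.93 and 8.77, 8.84 on both induced arrays, and 8.43 and 8.46 (-0.40, SE 0.083, limma adjusted p = 0.00591). ANAPC5, another platform subunit, read 10.21 and 10.10, 10.18 and 10.15, and 9.90 and 9.99 (-0.21, SE 0.065, limma adjusted p = 0.0394). In each the knockdown arrays stood below every mock array.

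On the rising side ANAPC10, which helps to hold substrates, read 7.41 and 7.24, 7.33 and 7.26, and 7.62 and 7.67 (0.32, SE 0.105, limma adjusted p = 0.0444). ANAPC13, a small stabilising subunit, read 10.56 and 10.58, 10.62 and 10.68, and 10.76 and 10.81 (0.21, SE 0.053, limma adjusted p = 0.0147). CDC20, the coactivator that the checkpoint restrains, read 10.81 and 10.80, 10.74 and 10.81, and 11.06 and 11.03 (0.24, SE 0.050, limma adjusted p = 0.00683). In these 3 genes the knockdown arrays stood above all mock arrays. The substrate gene PTTG1, which encodes securin, read 12.37 and 12.34, 12.33 and 12.35, and 12.19 and 12.22 (-0.15, SE 0.036, limma adjusted p = 0.0135). ESPL1, which encodes separase, had 0.01 (-0.20 to 0.23), and ANAPC11, the catalytic RING subunit, had 0.12 (0.02 to 0.23), neither called.

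Of these 7 calls, 6 depended on single arrays. Without replicate 1 of the knockdown ANAPC10, ANAPC13, ANAPC4, ANAPC5, CDC20 and PTTG1 lost their calls (limma adjusted p between 0.0514 and 0.228), and without replicate 2 ANAPC10, ANAPC13 and ANAPC5 did (0.18, 0.102 and 0.0731). Of the mock arrays not induced, leaving out replicate 2 ended the call of ANAPC10 (0.145) and leaving out replicate 1 that of ANAPC5 (0.128). Leaving out either induced array ended both calls as well (0.0775 and 0.077 for ANAPC10, 0.0688 and 0.0687 for ANAPC5), with differences still at 0.32 and -0.21, and ANAPC5 did with arrays centred on their medians (-0.18, limma adjusted p = 0.0556). ANAPC7 kept its call in every alternative that tested it, which leaves out the one without _x_at and _s_at probe sets.

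None of the 9 condensin and chromosome structure genes was called by limma, where 28.0% of all genes were. Their differences ran from -0.28 for SMC2, a core condensin ATPase, to 0.21 for NCAPD2, a subunit of condensin I (limma adjusted p = 0.0576). At an unadjusted p under 0.05, NCAPD2, NCAPG and SMC2 would have passed. NCAPD2 was called with arrays centred on their medians (0.24, limma adjusted p = 0.0363) and with both mock groups pooled (0.21, limma adjusted p = 0.0165). NCAPG, another condensin I subunit, had -0.24 and was called with the mock groups pooled (-0.23, limma adjusted p = 0.029) and without replicate 2 of the mock arrays not induced (-0.33, limma adjusted p = 0.0292). SMC2 was called without that array (-0.46, limma adjusted p = 0.0111). TOP2A, the topoisomerase that untangles sister chromatids, read 10.99 and 10.88, 10.93 and 10.84, and 10.96 and 11.03, so that its groups overlapped. Its difference was 0.06 (-0.08 to 0.19). SMC4, the partner of SMC2, had -0.10 (-0.26 to 0.05).

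Among 14 genes of the motors, the midzone and cytokinesis, 2 rose, 2 fell and 10 did not pass. The share called, 28.6%, lay near the 28.0% of all genes. KIF4A, a chromosome-bound motor of the midzone, read 9.60 and 9.54, 9.54 and 9.50, and 9.82 and 9.79 (0.24, SE 0.064, limma adjusted p = 0.0213). KIF2C, which takes microtubules apart at kinetochores, read 8.71 and 8.58, 8.75 and 8.64, and 8.90 and 8.93 (0.27, SE 0.083, limma adjusted p = 0.0357). In both genes the knockdown arrays stood above all mock arrays. KIF15, a spindle motor that backs up KIF11, read 8.22 and 8.04, 8.02 and 8.10, and 7.50 and 7.82 (-0.47, SE 0.121, limma adjusted p = 0.0176). KIF14, a motor of cytokinesis, read 8.79 and 8.84, 8.76 and 8.87, and 8.38 and 8.60 (-0.32, SE 0.093, limma adjusted p = 0.0276). The knockdown arrays of both lay below the mock arrays but apart from each other.

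ECT2, which activates RHOA for cytokinesis, read 7.25 and 7.01, 6.94 and 7.04, and 7.34 and 7.43, a difference of 0.26 (-0.01 to 0.52) that did not pass (limma adjusted p = 0.134). It was called with the mock groups pooled (0.33, limma adjusted p = 0.0254) and without replicate 1 of the mock arrays not induced (0.38, 0.0478). KIF11, the motor that separates spindle poles, had -0.05 (-0.21 to 0.11), KIF20A -0.03 (-0.21 to 0.15) and the midzone bundling gene PRC1 0.02 (-0.09 to 0.14). These 3 intervals leave out changes of 0.22 or more in either direction. BIRC5, which encodes survivin, had 0.01 (-0.15 to 0.17), and its second probe set 0.15. All 4 called genes lost their calls without replicate 1 of the knockdown, with limma adjusted p of 0.127 for KIF4A, 0.133 for KIF2C, 0.151 for KIF15 and 0.212 for KIF14, where KIF15 had -0.31 and KIF14 -0.21. Without replicate 2, KIF4A and KIF2C did (0.083 and 0.155). Of the mock arrays not induced, leaving out replicate 1 ended the call of KIF15 (0.0702) and leaving out replicate 2 those of KIF14, KIF4A and KIF2C (0.0747, 0.0546 and 0.112). KIF2C was not called without either induced array (0.0598 and 0.0591).

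The rule also took 3 genes by the start of their symbol. CENPV, a protein described at centromeres and on microtubules, read 10.65 and 10.72, 10.62 and 10.70, and 10.09 and 10.04 in the knockdown (-0.62, SE 0.058, limma adjusted p = 0.000119). All mock arrays lay above both knockdown arrays. CENPBD1P and CENPBD2P, named for a CENPB-like domain, had 0.23 and -0.01 and were not called.

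Related genes outside the rule were read as 5 lists. The lists were chosen with earlier results of these data known. Of 62 other mitosis genes, 10 rose and 6 fell (25.8%, against 28.0% of all genes), with a median of 0.054. SHCBP1, a midbody protein, rose by 1.23 (SE 0.169) and SKA1, which helps kinetochores follow microtubule ends, by 1.01 (SE 0.131). CDC23, a further subunit of the anaphase-promoting complex, rose by 0.67, and RCC1, which loads RAN with GTP on chromosomes, fell by 0.60. Of 26 regulators of G2 and M transcription and entry, 6 rose and 3 fell (34.6%, median 0.061). LIN52, a MuvB subunit, and RBL2, the p130 pocket protein of DREAM, rose by 0.57 and 0.56. E2F5, a repressor E2F, fell by 0.60, and NFYA, a subunit of NF-Y, fell by 0.57.

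Of 33 genes of the G1/S transition and replication, 3 rose and 4 fell (21.2%, median -0.005). TK1 and CCNE1 rose by 0.56 and 0.41, and the helicase genes MCM5 and MCM4 fell by 0.47 and 0.41. Of 11 cohesin genes, 0 rose and 2 fell, namely PDS5A by 0.45 and ESCO1 by 0.31 (18.2%, median -0.164). Of 8 spindle tubulin genes, 6 fell and 0 rose (75.0%, median -0.232). The largest of these falls were 0.31 for TUBB6, 0.30 for TUBB4B, 0.25 for TUBB and 0.23 for TUBA1A. Because tubulin paralogs resemble each other, 1 transcript may contribute to several of these readings.

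**Figure D4:**
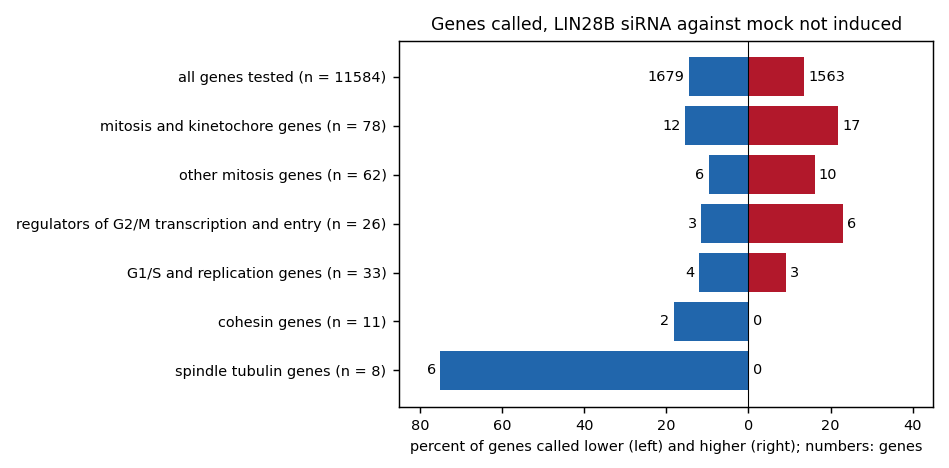
The percentage of genes called lower (blue, to the left of 0) and higher (red, to the right) between LIN28B siRNA and mock without induction, for all genes tested, the 78 mitosis and kinetochore genes and 5 related lists; the numbers beside the bars are genes. The 78 genes had 17 rises and 12 falls, and the 8 spindle tubulin genes had 6 falls and 0 rises.

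The second comparison was between mock cells with and without doxycycline induction. LIN28B itself was not called, with a difference of 0.19 (95% interval 0.02 to 0.37, limma adjusted p = 0.999), so the arrays gave no called rise of the induced gene; whether its probe set reads the transgene was not tested. Limma called 0 of the 78 genes, and 0.00% of all genes. At an unadjusted p under 0.05 there was 1 gene, CENPH, a subunit of the CENP-H-I-K-M complex. It read 8.88 and 8.74 without induction and averaged 9.05 (SD 0.06, n = 2) with it, with 8.73 and 8.49 in the knockdown. The induced arrays stood above the other 4, with a difference of 0.23 (95% interval 0.01 to 0.45, unadjusted p = 0.0394, limma adjusted p = 0.999). The next smallest p on the higher side were those of CENPBD1P (0.14) and ANAPC13 (0.08). On the lower side they were those of CENPN (-0.25, unadjusted p = 0.0507 by limma), CENPX (-0.10) and MAD2L1 (-0.11). None of these passed. The groups did not overlap for 6 higher and 7 lower genes of the 78, against 13.5% and 14.0% of all genes, 27.5% in all. The median over the 78 genes was -0.032, against -0.005 over all genes, and 47 of 78 had a negative difference. That median depends on 1 array: it was 0.024 without replicate 1 of the mock arrays not induced. On that array 53 of the 78 genes (67.9%) read higher than on replicate 2, against 54.3% of all genes, with a median gap of 0.083 against 0.022.

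The third comparison set the knockdown against induced mock cells. It shares the knockdown arrays with the first, so its values are only set beside them. Of the 78 genes, 15 rose and 14 fell, or 37.2%, against 28.4% of all genes, of which 14.0% rose and 14.5% fell. The groups did not overlap for 34 higher and 23 lower genes, against 34.9% and 33.1% of all genes, 68.0% in all. MKI67 had -0.94 and CENPQ 1.27, against -1.01 and 1.36 in the first comparison. CDK1 had 0.37, BUB3 -0.51, SGO1 0.71 and CCNA2 -0.38. CENPN had 0.70, against 0.45, since it read low on 1 induced array. CENPH, SGO2 and ECT2 were called here and not in the first comparison, with -0.43, -0.30 and 0.40 (limma adjusted p = 0.00874, 0.0388 and 0.0303). ANAPC13, KIF2C and SPC24 were called in the first comparison and not here, with 0.14, 0.22 and 0.26 (limma adjusted p = 0.0832, 0.0755 and 0.0566). The counts depend on single arrays, and the matching counts over all genes were not made. Without replicate 1 or 2 of the induced arrays, 12 and 9 rose and 5 and 7 fell. Without replicate 1 or 2 of the knockdown, 8 and 11 rose and 6 and 8 fell.

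**Figure D5:**
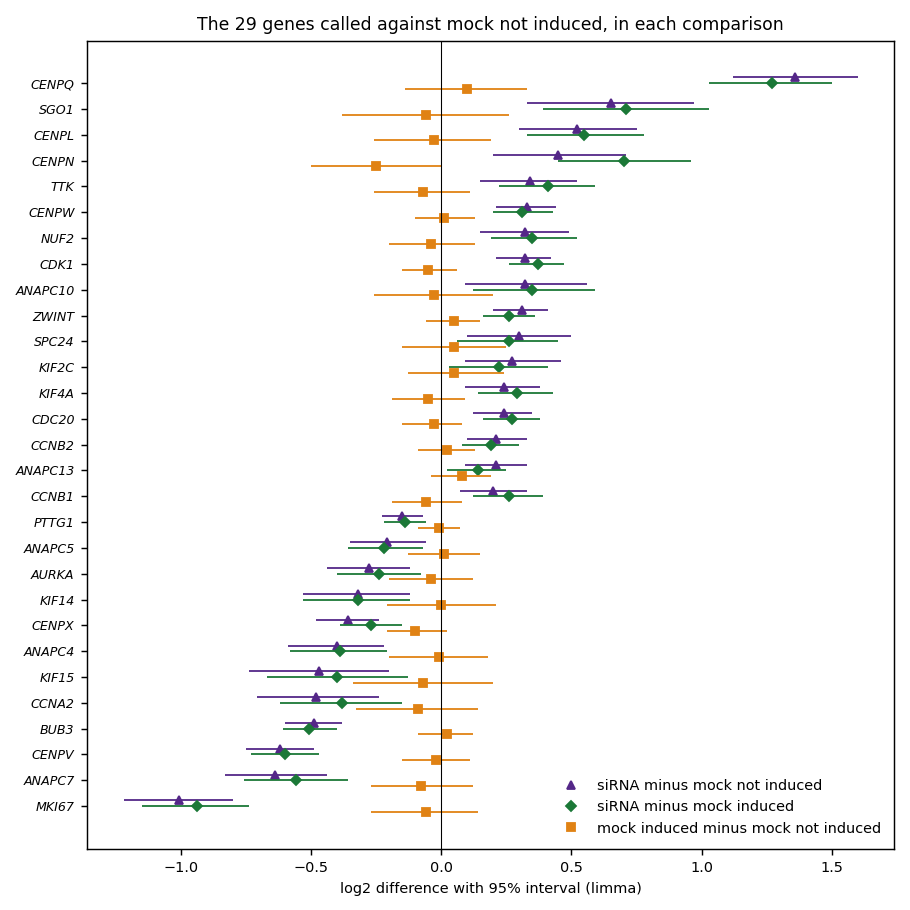
The log2 difference (points) and 95% interval from limma (lines) in each comparison for the 29 genes called between knockdown and mock without induction. Both comparisons with the knockdown arrays lie on the same side of 0 for every gene, and for induction (squares) 0 of the 29 genes was called.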

How the data were processed

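Total RNA of 6 samples was measured on 1 array each. Induction times are stated in the labels' protocols for crosslinked cells (15 to 20 h), not for these arrays. The deposited log2 values per probe set were made by the authors with affy and GCRMA, per the submitters' processing notes, with no version named. GCRMA returns base 2 logarithms; the table itself names no base. The table holds 13008 probe sets, part of the array, by a rule not given in the sources used here, and a gene outside it was not analysed. Of these, 11719 had 1 gene symbol, 609 several and 680 none listed. Symbols come from the platform annotation, updated by gene identifier to RefSeq, GRCh38.p14. Only 1-symbol probe sets were used, 1 per gene with the highest mean, and a floor of 4 on at least 2 arrays removed 0.

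The model was fitted in R 4.3.3 with lmFit and eBayes (intensity trend) of limma 3.58.1, over all 6 arrays, with 3 residual and 6.73 prior degrees of freedom, in two-sided moderated tests. The fit was run on simulated data with independent normal noise of the fitted spread. This checks the code, and not the spread between cultures. Named genes were LIN28B, MKI67, CDK1, CCNA2, all called members, the 2 brightest members of each role group not called, the 3 of smallest p in each direction under induction, and up to 4 called genes of each other list. Other members are named as values after they were seen. The members and lists were chosen with earlier results of these data known. The main fit did not pair the samples by replicate number. Deviations of the replicates from their group means correlated at 0.181, -0.0568 and 0.0155 between groups. With 2 arrays a group this cannot settle whether the replicates were paired. The number of arrays limits the precision. Alternatives were the arrays in the fit, scaling, filter, probe set choice, variance prior, control group, block and each array left out.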

Additional observations from a re-analysis of the deposited data

How the results depend on the processing

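Under 15 alternatives, 10 of the 29 called genes kept direction and call in each that tested them, 19 lost the call in at least 1, and 14 others were called in at least 1. Called genes did not change direction. CENPK, not called, was higher without replicate 1 of the mock arrays not induced (0.30, limma adjusted p = 0.0422), and lower without replicate 2 (-0.33, limma adjusted p = 0.0283), against -0.02 over all arrays. The cause was not tested. The count of genes called, 3242, was 2129 (1020 higher, 1109 lower) without _x_at and _s_at probe sets, where fewer genes were tested, and 1664 to 3143 with 1 array left out (815 to 1640 higher, 849 to 1562 lower). Among the mitosis and kinetochore genes, 7 of 78 rose with no intensity trend, against 1233 of all 11584 genes. Without _x_at and _s_at probe sets 4 of 46 tested fell, against 1109 of 7669 over all genes. Against induced mock cells 5 of 46 fell under that filter, and 6 of 78 with no intensity trend. For that comparison the matching counts over all genes were not made, so these counts cannot be set against them. With 1 array left out, 5 to 21 rose and 5 to 17 fell in the first comparison, and 8 to 21 rose and 5 to 14 fell against induced mock cells. The medians then ran from 0.011 to 0.063 for the knockdown and from -0.055 to 0.024 for induction. With the replicate number as a block 17 rose and 13 fell, and 3422 of all genes were called. Centring arrays on their medians moved all differences by 0.029 and quantile normalization by 0.016 in the median. With centring 20 of the 78 genes rose and 11 fell. Over all 11584 genes 1836 rose and 1521 fell with centring, against 1563 and 1679 in the main fit. With 2 arrays a group, and no spread between cultures known, small changes near 0.2 are at the limit of detection.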

Other observations

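Some mitotic genes start back to back with another gene. This was looked at after the values were seen. Of the 67 genes with a RefSeq promoter, 24 had a gene on the other strand pointing away whose first listed start lay within 1000 bases (GRCh38.p14). For 17 of these pairings the neighbour was in the table, with CENPB and CDC25B, which are each other's neighbour, counted from both sides. Of the neighbours 6 were called between knockdown and mock without induction, against 28.0% of all genes. In 7 pairings the mitotic gene was called, and in 3 of them both were. Back-to-back pairs of genes outside the rule were not counted, so these 3 pairings have no share to be set against.

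CENPQ starts 117 bases from MMUT, which encodes the mitochondrial enzyme methylmalonyl-CoA mutase. MMUT rose by 0.41 (SE 0.074, limma adjusted p = 0.00306), less than CENPQ with 1.36. KIF4A starts 177 bases from PDZD11, and PDZD11 rose by 0.46 (SE 0.059, limma adjusted p = 0.000544), where KIF4A rose by 0.24. ANAPC10 starts 92 bases from ABCE1, a ribosome recycling factor, and they went opposite ways: ANAPC10 rose by 0.32 while ABCE1 fell by 0.32 (limma adjusted p = 0.0424). KIF18A, which was not called (0.03), starts 232 bases from METTL15, a mitochondrial rRNA methyltransferase gene that fell by 0.83 (SE 0.102, limma adjusted p = 0.000423). The difference between the genes of a pair was not tested.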
